A study of Mus musculus with 4 samples.

Results

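Gastric RNA sequencing was read for 10 genes of bone morphogenetic protein (BMP) signaling, out of 46095 gene symbols in the deposited count table. They were taken by name, by their role in the pathway, as 3 ligands (*Bmp2*, *Bmp4* and *Bmp7*), 1 receptor (*Bmpr1a*), 2 antagonists (*Nog* and *Grem1*) and the 4 ID genes (*Id1*, *Id2*, *Id3* and *Id4*). All 10 passed the filter on low counts, which kept 17643 genes. The samples were 2 of control and 2 of *Atp4b-cre; MycOE* stomach (labelled MYC-KI), all from C57BL/6 mice 12 weeks old. The series' design text speaks of 3 per genotype, and 2 were analysed here. *Atp4b-cre; MycOE* mice carried *Atp4b-cre* and 1 copy of a Cre-dependent human *c-Myc* transgene (*Myc fl/+*), so Cre acted in the parietal cell lineage, where the *Atp4b* promoter is active. The controls, labelled wild type (WT), were *Myc fl/fl* littermates by the study's text, and thus carried the silent transgene without Cre. RNA was extracted separately for each sample by the labels, which do not say which region of the stomach was taken or that each sample is a different animal. The study used mice of both sexes.

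BMPs are secreted ligands that are cut from a precursor by furin-like proteases and bind a complex of type I and type II receptors, which phosphorylates Smad1, Smad5 and Smad9. These Smads enter the nucleus with Smad4 and switch on targets, of which the ID genes are the best known. ID proteins have a helix-loop-helix but no DNA-binding region, and they hold E proteins away from their basic helix-loop-helix (bHLH) partners. Noggin and gremlin bind the ligands outside the cell. In the gut BMP signaling is known to favor differentiation over stem cell division, and antagonists made by the stroma below the glands limit it there.

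The pairing of names with counts came first, because it decides every value here. The names in the deposited table are sorted without regard to case. The counts of both *Atp4b-cre; MycOE* columns were assigned, in row order, to the names sorted by character code, and the WT columns were left as they are. None of the 10 genes keeps its row, since 9 move by 1 row and *Nog* by 2. As deposited, the *Id2* row holds the transgenic counts that belong to *Id3* under this order, and the *Id1* row holds those of *Id2*. Over the 61 rows around each gene, the genotypes' mean log2(count + 1) correlated at a Pearson's r of 0.968 to 0.977 after re-sorting and 0.0247 to 0.418 as deposited. Leaving the gene itself out, r was 0.968 to 0.977. No other shift of up to 5 rows gave more than 0.419. These correlations are across genes, which are not independent replicates.

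Libraries held 30260305 to 41463647 counts. WT replicate 2 had 17846 counts of *Xist*, the RNA of the inactive X chromosome, against 85 to 201 in the other 3 samples. It had 5 counts of *Ddx3y*, a gene of the Y chromosome, against 1861 in WT replicate 1. The transgenic samples had 1941 and 2623 counts of *Ddx3y*. By these markers the WT pair was of mixed sex and the transgenic pair was male, so sex was not balanced between the genotypes. The row of the mouse gene *Myc* held 1062 and 759 counts in the WT samples, against 735 and 1091 in the transgenic ones. It is no check of the transgene, which is human and has no row of its own. The tissue was not alike in its cell markers. Summed over 5 parietal cell markers the level was 10468 and 10631 CPM (counts relative to TMM-adjusted library totals) in WT against 184 and 249 in transgenic stomach, and all 5 were called lower.

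The 4 ID genes are paralogs, and a read could be counted on the wrong one if their sequences were alike. Shown here is the most alike ungapped stretch of 120 bases in their coding sequences, from GENCODE M21 on GRCm38. It lies within exon 1 of each gene, and capitals mark the 70 positions at which all 4 have the same base.
*Id1*, chr2:152736520-152736639, plus strand: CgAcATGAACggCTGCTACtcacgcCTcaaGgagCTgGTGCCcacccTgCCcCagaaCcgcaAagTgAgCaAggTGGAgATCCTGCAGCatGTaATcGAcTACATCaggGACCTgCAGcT
*Id2*, chr12:25095781-25095900, minus strand: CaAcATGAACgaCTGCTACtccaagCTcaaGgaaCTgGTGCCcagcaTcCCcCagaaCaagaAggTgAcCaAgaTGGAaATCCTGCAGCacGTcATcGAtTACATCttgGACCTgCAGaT
*Id3*, chr4:136144004-136144123, plus strand: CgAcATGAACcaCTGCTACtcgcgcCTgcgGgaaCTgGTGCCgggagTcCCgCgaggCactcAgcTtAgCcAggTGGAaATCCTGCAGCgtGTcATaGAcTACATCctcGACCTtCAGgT
*Id4*, chr13:48261695-48261814, plus strand: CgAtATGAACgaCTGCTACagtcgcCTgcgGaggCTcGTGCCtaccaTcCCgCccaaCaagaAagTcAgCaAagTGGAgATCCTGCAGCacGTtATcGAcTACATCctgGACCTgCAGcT
Even here *Id1* shared 80.8% of bases with *Id2*, 70.8% with *Id3* and 78.3% with *Id4*. The longest run of identical bases between any transcripts of 2 ID genes was 19, between *Id2* and *Id3*, and no run between *Id1* and another ID gene passed 17. Reads longer than such a run differ between the paralogs. The read length is not given in the sources used here.

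Levels of the genes relative to each other were compared as CPM per kilobase of annotated exon. *Id1* was highest, with 164.8 and 169.4 in the WT samples against 230.9 and 236.6 in the transgenic ones, followed by *Id3* and *Id2*. The receptor *Bmpr1a* stood next, with 31.2 ± 1.19 (SD, n = 2) CPM per kilobase in WT, above each of the 3 ligands. Among these *Bmp2* (18.8 ± 3.03) lay above *Bmp4* (12.6 ± 0.956) and *Bmp7* (7.41 ± 0.786). *Id4* and *Grem1* overlapped at 3.72 ± 0.120 and 3.67 ± 0.123, and *Nog* was lowest, at 0.753 ± 0.0710. The order of the means was the same in transgenic mice, but there *Id2* overlapped with *Bmpr1a* and *Bmp4* with *Bmp7*, as well as *Id4* with *Grem1*. Neighbors not named here did not overlap between their samples.

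Between the genotypes, *Id1* was the only gene of the 10 whose samples lay higher in *Atp4b-cre; MycOE* mice. The other 9 lay lower in both transgenic samples than in either WT sample, in TMM-normalized CPM. This pattern depends on the scaling. By library size without TMM factors, *Id3* was at 0.020 and *Bmpr1a* at -0.042 on the log2 scale. Such a gap without overlap was common, being found upward in 33.3% and downward in 31.5% of all genes tested. None of the 10 was called by edgeR's quasi-likelihood test at the thresholds of the study's methods, an adjusted p-value under 0.05 with a change of more than 1.5-fold in either direction. The same rule called 10.7% of all genes, 5.65% higher and 5.08% lower. At an adjusted p-value under 0.05 with any fold change, 1 gene passed (*Id1*), against 12.9% of all genes. At an unadjusted p-value under 0.05 there were 5 of 10, against 34.1% of all genes. The median log2 fold change was -0.40 over the 10 genes and 0.01 over all genes tested. DESeq2, the tool of the study's methods, called 1 of the 10, *Bmp4*, where it called 18.0% of all genes.

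**Figure D1:**
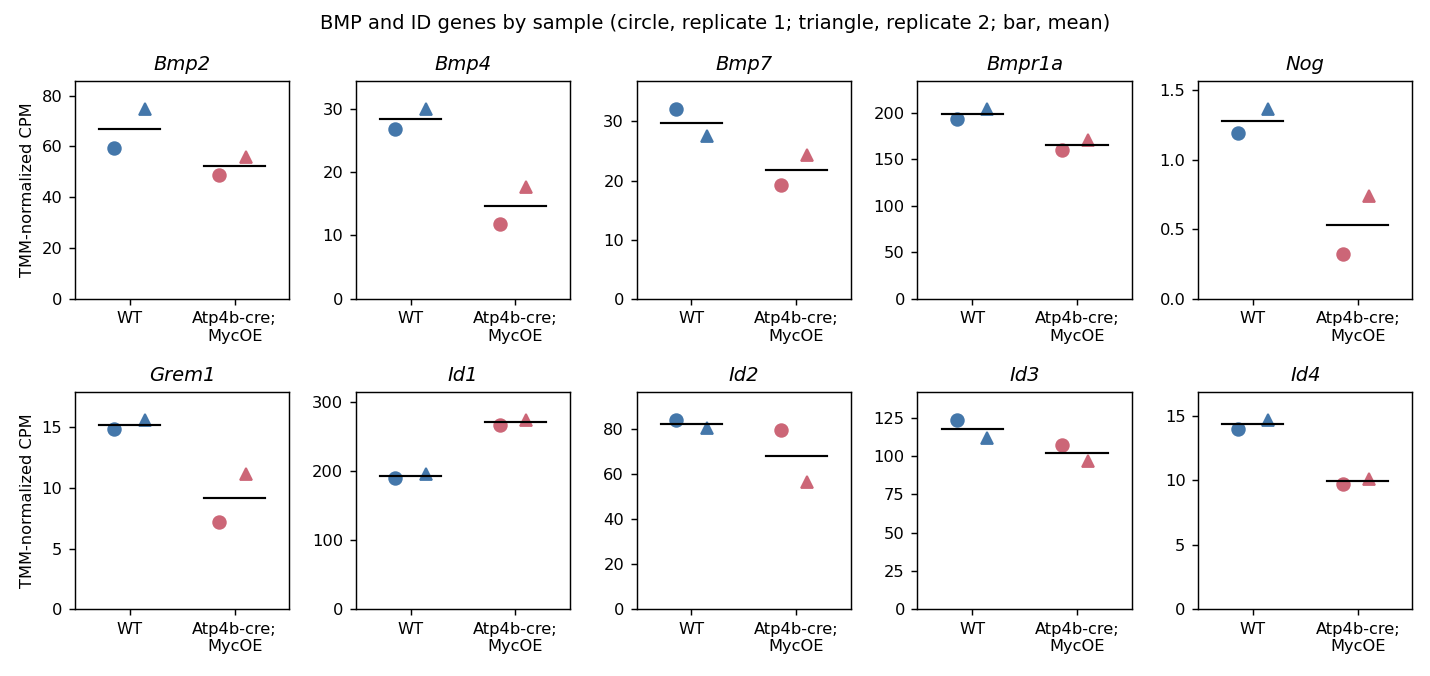
TMM-normalized CPM of the 10 genes in each sample, with linear axes from 0. Circles are replicate 1, triangles replicate 2 and bars the mean of 2 samples. *Id1* is the only gene whose transgenic samples lie above WT, at 267.9 and 274.4 against 191.2 and 196.5.

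*Id1* (chr2:152736251-152737410 on GRCm38) had 191.2 and 196.5 CPM in WT and 267.9 and 274.4 in transgenic stomach, from 5481 to 12258 counts per sample. Samples of a genotype lay close together and the genotypes did not overlap. The log2 fold change was 0.48 (standard error 0.08, 95% interval 0.28 to 0.69, adjusted p = 0.0343 in edgeR), a 1.40-fold level that stays under the fold threshold. *Id1* kept this direction when each sample was left out, at 0.46 to 0.50, but it then no longer passed the threshold on the adjusted p-value. Without either WT sample no gene of the whole table was called. With the replicate number as a block the adjusted p-value of *Id1* was 0.0831 in edgeR, and 0.646% of all genes were called. In DESeq2 *Id1* had an adjusted p-value of 9.62e-05 at a log2 fold change of 0.47. By library size without TMM factors, *Id1* was called higher, with a log2 fold change of 0.71, while the median of all genes then moved to 0.23.

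*Id2* (chr12:25093799-25097140) had 84.1 and 80.8 CPM in WT and 79.6 and 56.6 in transgenic stomach. The transgenic samples of *Id2* lay farther apart than the genotypes, and its log2 fold change of -0.28 had a 95% interval from -0.76 to 0.21. It was -0.54 (adjusted p = 0.0491) without transgenic replicate 1 and -0.05 without replicate 2. *Id3* (chr4:136143497-136145755) had 123.4 and 111.7 CPM in WT and 107.3 and 97.0 in transgenic stomach, with a log2 fold change of -0.20 (interval -0.47 to 0.07). The direction of *Id3* depends on the scaling, since it was 0.020 by library size. *Id4* (chr13:48261228-48266026), the scarcest of the 4, had 14.0 and 14.7 CPM in WT and 9.70 and 10.1 in transgenic stomach. Its samples agreed closely within each genotype, and the log2 fold change was -0.53 (standard error 0.15, adjusted p = 0.0856). In DESeq2, *Id4* had an adjusted p-value of 0.0367 at a log2 fold change of -0.54, under the fold threshold.

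The ratio of *Id1* to the other ID genes within a sample does not depend on how libraries are scaled. *Id1* counts were 0.863 and 0.949 times the sum of *Id2*, *Id3* and *Id4* in WT, and 1.36 and 1.68 times that sum in *Atp4b-cre; MycOE* mice. The genotypes did not overlap in this ratio. Counts were not divided by gene length, so the ratio does not show whether *Id1* lay below or above the other 3. Per kilobase of exon, *Id1* was at 164.8 and 169.4 CPM in WT. By that measure *Id3* was at 68.9 and 62.3 in WT, *Id2* at 34.5 and 33.1, and *Id4* at 3.64 and 3.81. Against *Id4* the ratio was 13.7 and 13.4 in WT and 27.6 and 27.1 in transgenic mice, and against *Id3* it was 1.55 and 1.76, then 2.50 and 2.83. These ratios were formed after the values had been seen. With 2 samples against 2, an exact permutation test cannot go below p = 0.333 (two-sided), so they were not tested.

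**Figure D2:**
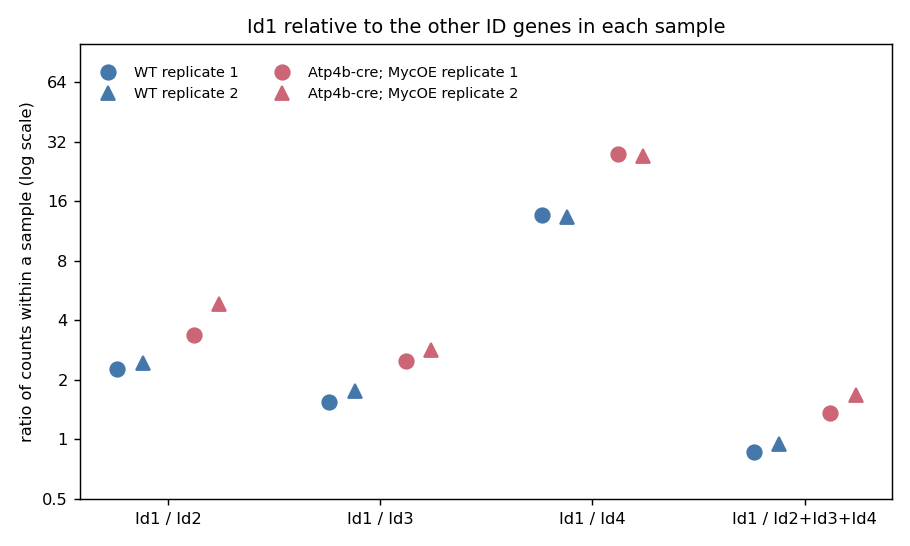
Counts of *Id1* divided by those of each other ID gene, and by their sum, within each sample, on a log scale. In each of the 4 ratios both transgenic samples lie above both WT samples, with *Id1* over the sum at 0.863 and 0.949 against 1.36 and 1.68.

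The *Id1* values stand beside marked changes of cell markers. The level of 6 endothelial markers, a cell type in which *Id1* is well known, summed to 307.3 and 302.6 CPM in WT and 126.5 and 110.0 in transgenic stomach, and 5 of 5 tested were called lower. *Id1* per endothelial marker CPM was therefore 0.622 and 0.649 in WT and 2.12 and 2.50 in transgenic mice. The 6 proliferation markers moved the other way, from 377.0 and 354.2 CPM to 551.3 and 495.3, and 2 of 6 were called higher. *Id1* per proliferation marker CPM overlapped between the genotypes, at 0.507 and 0.555 in WT and 0.486 and 0.554 in transgenic mice. The part of these markers in the *Id1* result was not tested. In bulk tissue, fewer cells of a type and less RNA per cell cannot be told apart.

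*Bmp4*, a ligand made mainly by stromal cells in the gut, had the lowest fitted log2 fold change of the 3 ligands. *Bmp4* (chr14:46383520-46390669) was read from 900 and 833 WT counts against 398 and 788 transgenic ones, or 26.8 and 29.9 against 11.7 and 17.6 CPM. Both transgenic samples lay below WT, and transgenic replicate 1 was the lowest. The log2 fold change was -0.95 (standard error 0.24, 95% interval -1.58 to -0.31), and the adjusted p-value was 0.0706 from edgeR and 0.00356 from DESeq2. Without transgenic replicate 2 *Bmp4* was called, at -1.27 (adjusted p = 0.0230), and without a filter on low counts it was called at -0.93 (adjusted p = 0.0292). *Bmp4* was not called without transgenic replicate 1 (-0.68), nor with the replicate number as a block (-0.97, adjusted p = 0.0825 in edgeR). The fit with this block called 0.646% of all genes. Without WT replicate 1 or 2, *Bmp4* was at -1.02 and -0.87. Those 2 fits called no gene of the whole table, so they say nothing particular to *Bmp4*. A fit without 1 sample has 1 residual degree of freedom and takes the lone sample of its genotype to vary like the other pair.

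*Bmp2* (chr2:133552159-133562885), a ligand close to Bmp4 in sequence, had 59.3 and 74.6 CPM in WT and 48.6 and 56.0 in transgenic stomach. The gap between its genotypes was smaller than the spread of the WT samples, and the log2 fold change was -0.36 (interval -0.76 to 0.05, adjusted p = 0.181). *Bmp7* (chr2:172868012-172940321), of another ligand subgroup, had 32.0 and 27.6 CPM in WT and 19.3 and 24.3 in transgenic stomach. Its log2 fold change was -0.45 (interval -0.91 to 0.01, adjusted p = 0.150). The intervals of *Bmp2* and *Bmp7* thus reach from above 0 to beyond the fold threshold. Within a sample, *Bmp4* counts were 0.452 and 0.400 times those of *Bmp2* in WT and 0.242 and 0.315 times in transgenic mice, without overlap, whereas *Bmp7* over *Bmp2* overlapped between the genotypes.

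*Bmpr1a* (chr14:34410734-34503341), the type I receptor that binds these ligands, had 192.8 and 203.5 CPM in WT and 159.7 and 170.1 in transgenic stomach. Replicates lay close together, and the log2 fold change of -0.27 (standard error 0.08, 95% interval -0.49 to -0.04, adjusted p = 0.110) had an interval that stayed within the fold threshold. By library size it was -0.042. The antagonist *Grem1* (chr2:113746164-113758646), gremlin, had 14.9 and 15.6 CPM in WT and 7.19 and 11.2 in transgenic stomach, or -0.73 on the log2 scale (standard error 0.26, adjusted p = 0.134). As for *Bmp4*, transgenic replicate 1 was the lowest sample. Without transgenic replicate 2 *Grem1* was called, at -1.08 (adjusted p = 0.0382), and without replicate 1 the value was -0.45. *Nog* (chr11:89300638-89302332), noggin, rested on only 40 and 38 WT counts against 11 and 33 transgenic ones. Its fitted log2 fold change was -1.24, the largest in size of the 10 genes, but its 95% interval ran from -2.71 to 0.22 at this depth.

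**Figure D3:**
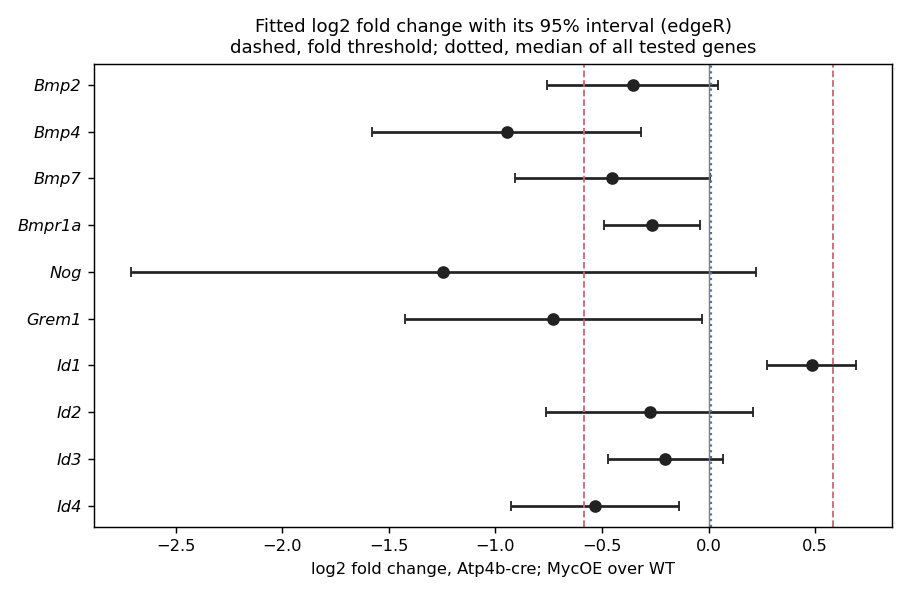
Fitted log2 fold change of the 10 genes, *Atp4b-cre; MycOE* over WT, with the 95% interval from edgeR's quasi-likelihood fit. Dashed lines mark a 1.5-fold change and the dotted line the median of all tested genes, at 0.01. *Id1* is the only gene to the right of 0, and the interval of *Nog* is the widest.

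Transgenic replicate 1 was the lowest sample for 7 of the 10 genes, *Bmp2*, *Bmp4*, *Bmp7*, *Bmpr1a*, *Nog*, *Grem1* and *Id4*. It was also the lowest for the summed CPM of 9 of 13 marker lists, epithelial lists among them. Adipocyte markers were at 153.1 and 412.2 CPM in WT against 15.1 and 31.0 in transgenic replicates 1 and 2. The 6 fibroblast markers summed to 2352 and 2642 CPM in WT and to 684 and 1189 in transgenic replicates 1 and 2, and 3 of 6 were called lower. The 6 smooth muscle markers summed to 7640 and 4827 CPM in WT and to 2479 and 5270 in transgenic mice, with 0 called. Per 1000 CPM of fibroblast markers, *Bmp4* was at 11.4 and 11.3 CPM in WT and 17.1 and 14.8 in transgenic mice, and *Grem1* was at 6.32 and 5.90 against 10.5 and 9.40. Relative to the summed fibroblast markers, both genes were thus higher in transgenic stomach, opposite to their CPM, whereas *Nog* overlapped, at 0.507 and 0.516 in WT against 0.474 and 0.622. The collagen gene *Col3a1* alone held 967.7 and 1130 CPM of this sum in WT. The 6 markers had log2 fold changes from -1.53 to -0.995, the last being *Pdgfra*, close to *Bmp4* at -0.95. Whether *Bmp4* or *Grem1* was higher relative to each single marker was not tested. Per 1000 CPM of smooth muscle markers *Nog* was lower without overlap, at 0.156 and 0.282 against 0.131 and 0.140. By the same measure the genotypes overlapped for *Bmp4* and *Grem1*, with 1.95 and 3.23 CPM of *Grem1* in WT and 2.90 and 2.12 in transgenic mice. The part of stromal markers in the values of these genes was not tested.

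**Figure D4:**
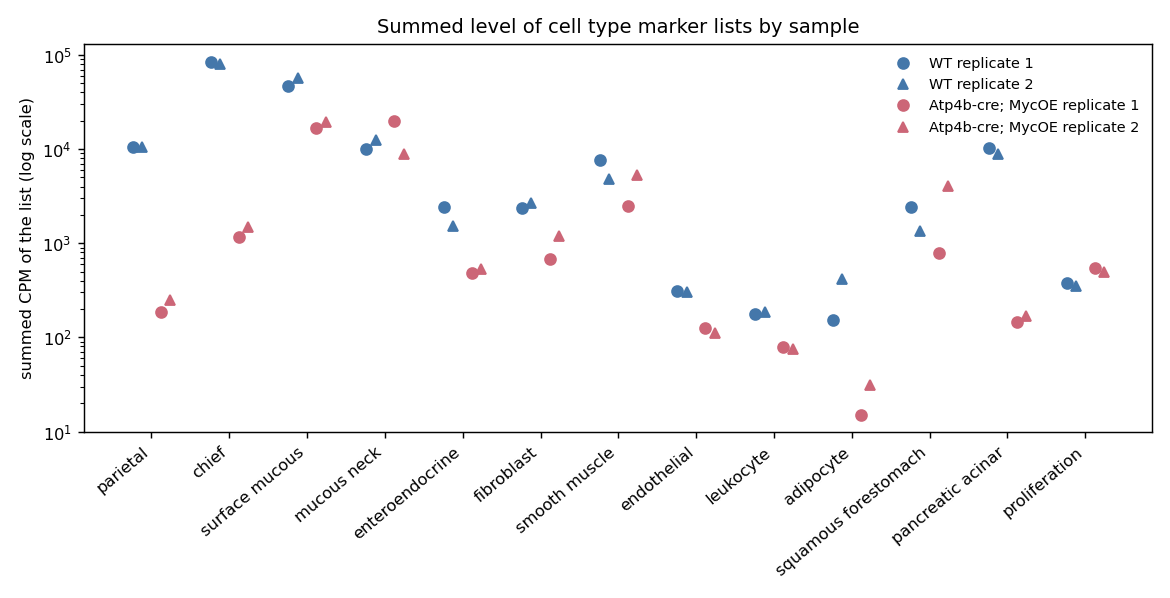
Summed TMM-normalized CPM of 13 cell type marker lists in each sample, on a log scale. Parietal, chief, fibroblast and endothelial markers are lower in both transgenic samples, and the squamous markers of the forestomach range from 785 to 4051 CPM between the transgenic samples.

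Antagonists were set against ligands within each sample. The counts of *Nog* and *Grem1* together were 0.136 and 0.128 times those of *Bmp2*, *Bmp4* and *Bmp7* in WT and 0.0945 and 0.122 times in transgenic mice. *Bmp4* over *Grem1* was 1.80 and 1.91 in WT and 1.63 and 1.58 in transgenic mice. Neither ratio overlapped between the genotypes, and the gap in the first was smaller than the spread of the transgenic samples.

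Promoters were searched for letters that the perturbed factor and the pathway are known to bind. RefSeq promoter windows on GRCm38.p6, from 250 bases before to 50 after a start, were present for 6 of the 10 genes: *Bmp4*, *Bmpr1a*, *Grem1*, *Id2*, *Id3* and *Id4*. CACGTG, the E-box bound by MYC with MAX, was found in *Bmp4* only, and in 7.15% of all 32851 windows. GGCGCC, a GC-rich element bound by BMP Smads, was found in 4 of the 6, and in 11.9% of all windows. Both motifs read the same on either strand and do not overlap each other. Each match is shown with 12 bases on either side and the motif in capitals, on the strand of the gene.
*Bmp4*, chr14:46390840-46390869, 188 bases before the start: tagtacctcttgCACGTGgtccccaggtga
*Grem1*, chr2:113758709-113758738, 78 bases before the start: cgcggcggcgacGGCGCCtgaccaatggag
*Id2*, chr12:25096306-25096335, 231 bases before the start: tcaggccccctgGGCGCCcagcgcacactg
*Id4*, chr13:48260956-48260985, 148 bases before the start: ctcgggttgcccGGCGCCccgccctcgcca
*Bmpr1a*, chr14:34502727-34502756, 198 bases before the start: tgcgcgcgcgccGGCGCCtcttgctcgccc
Starts are those of RefSeq. The matches in *Id2* and *Bmpr1a* lie before the RefSeq start but inside the span that GENCODE gives the gene, which begins farther upstream. None of these matches lies in an annotated exon. A match is a description of the letters, and no binding was measured here.

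Other genes of the pathway were read from lists of ligands, processing enzymes, antagonists, receptors, Smads, targets and ID partners. Of 74 genes besides the 10, 64 were tested, 0 were called higher and 8 lower (12.5%), where 5.08% of all genes were called lower. Their median log2 fold change was -0.49. Without WT replicate 1 or 2 the number called was 0, as it was over all genes. Without transgenic replicate 1 it was 12 of 67 (1 higher), where 8.68% of all genes were called, and without replicate 2 it was 18 of 68 (1 higher), against 13.5%. With the replicate number as a block it was 1 of 64, against 0.646%. DESeq2 called 19 of 66, 1 higher and 18 lower, or 28.8% against 18.0% of all genes.

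The called gene with the lowest log2 fold change was a processing enzyme. *Furin*, the protease that cuts BMP precursors, had 1444 and 1423 CPM in WT and 236.5 and 128.8 in transgenic stomach, or -2.97 on the log2 scale (standard error 0.33, adjusted p = 0.0213). Both transgenic samples were far below WT. *Pcsk6*, a related convertase, fell from 139.4 ± 15.4 (SD, n = 2) to 58.6 ± 8.62 CPM (log2 fold change -1.25, adjusted p = 0.0233), and *Bmp1*, the tolloid protease that cuts chordin, was at -0.49 (adjusted p = 0.182). *Furin* and *Pcsk6* fell in the same samples as the parietal and chief cell markers, whose part was not tested.

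Of 11 other receptors and co-receptors tested, 3 were called lower. *Bmpr1b*, a type I receptor, fell from 18.3 and 29.0 CPM to 2.86 and 6.20 (log2 fold change -2.38, adjusted p = 0.0476). *Acvrl1* and *Eng*, a type I receptor and its co-receptor of endothelial cells, fell from 46.7 ± 0.933 to 19.4 ± 2.48 CPM (log2 fold change -1.27, adjusted p = 0.0200) and from 76.7 ± 10.1 to 33.5 ± 2.91 CPM (-1.19, adjusted p = 0.0214). Endothelial markers had a median log2 fold change of -1.33 in the same samples. *Hfe2*, a co-receptor of skeletal muscle and liver named here after its values were seen, had 0 counts in transgenic replicate 1 and 374 in replicate 2, against 38 and 20 in WT.

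Among the antagonists, *Fst* (follistatin), which binds activins and some BMPs, was the only one called, with 6.59 and 5.56 CPM in WT and 2.45 and 2.33 in transgenic stomach (log2 fold change -1.35, adjusted p = 0.0433). *Twsg1*, the most abundant of the list and a partner of chordin, was at -0.36 (adjusted p = 0.0978). Of the other ligands 7 were tested and 0 called, with log2 fold changes from -1.33 to -0.45, and the genotypes overlapped in 4 of them.

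Of the Smads that carry the signal none was called. *Smad1* and *Smad5* were at 0.05 and 0.03 on the log2 scale, while *Smad9* had 18.4 and 16.5 CPM in WT and 4.84 and 8.22 in transgenic stomach (-1.42, adjusted p = 0.0538). These 3 were named after their values were seen. *Smad6*, an inhibitory Smad and a direct target of BMP signaling, fell from 45.6 and 48.6 CPM to 32.7 and 29.0 (log2 fold change -0.61, standard error 0.11, adjusted p = 0.0395). It was the only 1 of 8 Smad pathway genes called, and *Smad4*, the shared partner, was at 0.23 (adjusted p = 0.162). In the list of other targets, which holds neither ID genes nor Smads, 0 of 8 tested were called, and the most abundant, *Tbx3*, was at -0.38 (adjusted p = 0.588). *Id1* and *Smad6*, both known targets of BMP signaling, thus had fitted changes of opposite sign. *Id2*, *Id3* and *Id4* shared the sign of *Smad6*, at -0.28, -0.20 and -0.53, and no ID gene was called. The other targets tested ranged from -0.65 to 1.14.

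The partners of ID proteins were read last. None of the 3 E proteins was called, with log2 fold changes of -0.14 to 0.49, and *Tcf4* had the highest CPM of them. Of 6 bHLH genes that pair with E proteins in the gut, *Bhlha15* (Mist1), a regulator of secretory cells that is also among the chief cell markers, fell from 41.1 and 38.6 CPM to 11.8 and 5.19 (log2 fold change -2.23, adjusted p = 0.0442). The other 5 were not called, and *Ascl2*, the most abundant of them, was at 0.57 (adjusted p = 0.331).

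**Figure D5:**
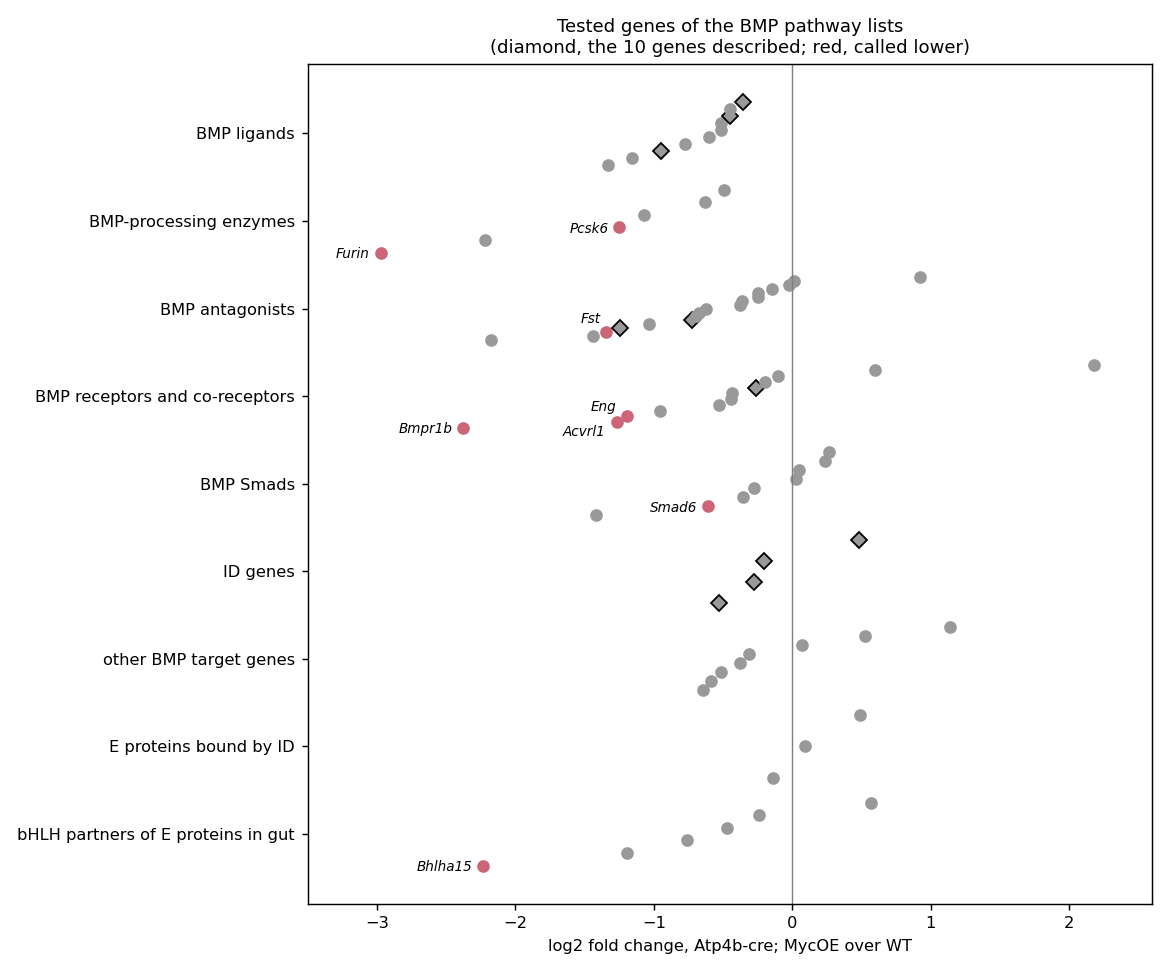
Log2 fold change of every tested gene of the BMP pathway lists, *Atp4b-cre; MycOE* over WT, by list. Diamonds are the 10 genes described and red points are genes called lower at an adjusted p-value under 0.05 and a fall of more than 1.5-fold. No gene is called higher, and *Furin* lies farthest to the left, at -2.97.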

How the data were processed

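The authors deposited 1 table of raw counts per gene symbol, 1 column per sample, without normalization. The submitters' processing notes name HISAT2 and the build mm10, and the counting tool, annotation and strand setting are not given in the sources used here. Genes overlapping on the other strand were looked up, and *Gm15217* (*Bmp4*) and *A330033J07Rik* (*Id4*) had at most 7 counts in any sample. *Gm15222* (*Bmp4*, with no exonic overlap), *Gm17110* (*Bmpr1a*, 290 exonic bases) and *Gm49291* (*Id4*, 171 exonic bases) have no row in the table used here, so their reads could not be checked. The 10 genes and all lists were chosen with earlier results of these data known. From each pathway list, the genes named are those called and the one with the highest CPM not called, which is 1 of the 10 genes for ligands (*Bmp2*), receptors (*Bmpr1a*) and ID genes (*Id1*). *Hfe2*, *Smad1*, *Smad5* and *Smad9* are exceptions, named after their values were seen.

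After re-sorting, counts of all 4 samples were fitted with edgeR 4.0.16 in R 4.3.3 (TMM, filterByExpr, glmQLFit, glmQLFTest, no covariate) and p-values were adjusted by Benjamini-Hochberg over 17643 genes. Standard errors are the absolute log2 fold change over the square root of F, and 95% intervals use its degrees of freedom. Alternatives included DESeq2 1.42.0, other scaling and filters, the replicate number as a block, and leaving out each sample. Coding sequences were aligned with MAFFT 7.526. The labels say that RNA was extracted separately but not that each sample is a different animal, so p-values measure only the spread between these samples. *Xist* and *Ddx3y* differ between the WT samples as between sexes, so these were not the same animal. Replicates differed by more than counting noise (chi-square per degree of freedom 28.9 in WT, 97.9 in transgenic mice). On simulated counts of 17279 genes for this comparison, 153 of 200 genes simulated at a log2 difference of 2 were recovered (76.5%) and 2 others called.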

Additional observations from a re-analysis of the deposited data

How the results depend on the processing

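Leaving out any sample left 1 residual degree of freedom, with the lone sample assumed to vary like the others. The share of all genes called was 10.7% in the fit reported, 84.1% as deposited and 18.0% with DESeq2. By library size that share was 17.1%, without a filter on low counts 9.79% and without a fold threshold 12.9%. The number of the 10 genes called was 0 in the fit reported and 8 in the table as deposited. It was 1 each with DESeq2 (*Bmp4*), library size (*Id1*), no filter on low counts (*Bmp4*) and no fold threshold (*Id1*). It was 0 to 2 when each sample was left out. Of the other pathway genes, 8 were called in the fit reported, 61 as deposited, 19 with DESeq2, 14 without a filter, 1 with the replicate block and 0 to 18 when each sample was left out. Over all genes the number was 1892, and it was 18580 as deposited, 3232 with DESeq2, 3011 by library size, 114 with the replicate block, 1113 above an absolute log2 fold change of 1 and 0 to 2470 when each sample was left out. By library size 2272 genes were called higher and 739 lower, against 996 and 896. As deposited, the log2 fold change turned for *Id1* (-1.45), *Id2* (0.37), *Id4* (3.26), *Nog* (4.99) and *Grem1* (0.48), since those transgenic counts are of neighboring rows. *Id3* turned by library size (0.020). By the same scaling *Id2* was at -0.05, *Bmpr1a* at -0.04, *Bmp2* at -0.13, *Bmp7* at -0.23 and *Id4* at -0.31. *Grem1* was then at -0.51, *Bmp4* at -0.72 and *Nog* at -1.02. With each sample left out, genes not called ranged from -0.51 to -0.19 (*Bmp2*), -0.63 to -0.29 (*Bmp7*), -1.96 to -0.78 (*Nog*) and -0.28 to -0.13 (*Id3*). The replicate numbers are not known to pair the samples, whose same-numbered deviations correlated at 0.067, and the replicate block called none of the 10. Other causes of these differences were not tested.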
